A study of Mus musculus with 3 samples.

Results

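The 8 genes described here encode receptors for neurotrophic factors: the receptor tyrosine kinase Ret, its 4 co-receptors Gfra1, Gfra2, Gfra3 and Gfra4, the neurotrophin receptor kinases Ntrk2 (TrkB) and Ntrk3 (TrkC), and the neurotrophin receptor Ngfr (p75). They were chosen as a set on the basis of their function and of their FPKM values in these libraries, and were found by matching each deposited UCSC transcript to a gene symbol by its mm10 position. All 8 were found among 24275 gene symbols. Because measured values entered the choice, every level and difference of the 8 genes is given as a description, without a test.

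Polyadenylated RNA was sequenced in 3 libraries, 1 per group, from cells sorted by flow cytometry from the upper small intestine of C57BL/6 mice. The GIP-GFP group was made of cells whose reporter marks expression of the incretin hormone gene Gip. The Ngn3-TOMATO group came from male offspring of Ngn3-Cre mice and ROSA26-LoxP-STOP-LoxP-tomato indicator mice, and its cells had kept the tomato label after Neurogenin 3, the factor that starts endocrine differentiation in the gut, was active in them or in the progenitors they came from. The Ngn3-negative group was the tomato-negative epithelium of that cross, described by the submitters as the non-enteroendocrine population. Cells stained for CD45, a protein of blood cells, were left out of both tomato sorts; the series text states no such gate, and no sex, for GIP-GFP. The Cre label stays in all descendants of a cell that once expressed Neurogenin 3, whatever they became. Each library was a pool of equal amounts of RNA from several samples, and how many mice gave RNA is not known here. With 1 library in each group, no difference has a replicate check.

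Ligands of the GDNF family bind a co-receptor that is tethered to the membrane by a lipid anchor and has no signalling part of its own, and the pair then brings Ret molecules together so that their kinase domains become active. GFRα1 prefers GDNF, GFRα2 neurturin, GFRα3 artemin and GFRα4 persephin. Neurotrophins act through Trk kinases, with BDNF and NT4 binding TrkB and NT3 binding TrkC, and all of them can bind p75. In the gut, Ret and Gfra1 are best known for the colonization of the bowel by the progenitors of enteric neurons.

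Expression is given as scaled FPKM. This is the deposited FPKM (a read density per length of transcript and library size), summed over the transcripts of a gene and divided by 1 common number, so that ratios between libraries stay as deposited and the mean total over genes is 1000000. Differences are log2 ratios after 1 was added to each value, which understates the difference of low genes, and a gene was compared where at least 1 of the 2 libraries reached 1 scaled FPKM. Brackets hold 95% counting intervals computed from the deposited limits, which cover counting and read assignment in these libraries only. Values in threes follow the order GIP-GFP, Ngn3-TOMATO, Ngn3-negative unless stated otherwise.

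The sorts were checked on their reporters. Gip stood at 240937, 27962 and 728 scaled FPKM, and Neurog3, which is expressed briefly in progenitors, at 4.46, 24.0 and 13.8. Read bases came to 592, 1380 and 1030 Mb, so GIP-GFP was the shallowest. The number of genes that reached 1 scaled FPKM was 13077, 13169 and 11997. All 10 enteroendocrine marker genes were at least 2-fold higher in both reporter libraries than in Ngn3-negative, with summed levels of 19005, 25231 and 405 scaled FPKM. The 6 goblet cell markers summed to 4859, 164260 and 29317, and the 6 Paneth cell markers to 2265, 26806 and 4754, so Ngn3-TOMATO also held the most RNA of both of these secretory types.

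The sequences that carry the transcript forms are shown first. Ret protein occurs with either of a pair of tails, which differ in the docking sites they offer. In the GENCODE M21 annotation, the form of 1073 residues reads on from the next-to-last exon of the longer form into the intron after it, and stops there after 32 bases. The form of 1115 residues removes that intron and ends in the next exon. Both ends of the coding sequence are shown 5′ to 3′, from chr6:118155256-118155287 and chr6:118153853-118154010 of GRCm38.p6, minus strand, with the stop codon in capitals.
Ret, end of the 1073-residue form: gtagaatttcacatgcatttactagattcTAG
Ret, end of the 1115-residue form: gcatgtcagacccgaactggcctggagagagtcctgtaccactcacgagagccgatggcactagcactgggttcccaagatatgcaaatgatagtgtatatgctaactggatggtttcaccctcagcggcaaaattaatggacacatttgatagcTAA

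Gfra1 has forms of 468 and 463 residues, which differ by an exon of 15 bases at chr19:58392573-58392587, minus strand. It is shown in capitals between the 12 bases of coding sequence on each side, taken from the annotated transcript.
Gfra1, 15-base exon: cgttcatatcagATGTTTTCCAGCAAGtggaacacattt

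Promoter windows, from 250 bases before to 50 after an annotated RefSeq start (GRCm38.p6), were listed for 4 of the 8 genes: Gfra1, Gfra4, Ntrk2 and Ngfr. The window of Gfra1, the one of these genes that reached 10 scaled FPKM, is shown. A pair of windows of Bdnf, the gene of a neurotrophin, is shown with it. Reads of GIP-GFP and Ngn3-negative, but not of Ngn3-TOMATO, were assigned to the transcript of the window labelled as the start in use. The transcript of the other window was listed at 0 in all libraries. Capitals mark any of 4 motifs searched on both strands, none of which contains another. The E-box CAGCTG, the same on both strands, was present in 16.3% of 32851 promoter windows of the same length. The second E-box searched, CAGATG, which reads as CATCTG on the opposite strand, was present in 17.2%. The half-site CGTCA of the cyclic AMP element, which reads as TGACG on the opposite strand, was present in 20.8%, and the homeodomain core TAATTA in 5.29%.
Gfra1, chr19:58455349-58455648, minus strand: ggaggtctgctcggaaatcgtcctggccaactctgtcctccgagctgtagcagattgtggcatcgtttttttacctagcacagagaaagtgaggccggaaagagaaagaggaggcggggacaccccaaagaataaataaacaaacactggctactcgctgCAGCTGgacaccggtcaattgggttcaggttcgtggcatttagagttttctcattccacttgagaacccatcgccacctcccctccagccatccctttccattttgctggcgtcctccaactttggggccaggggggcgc
Bdnf, start in use, chr2:109692777-109693076, plus strand: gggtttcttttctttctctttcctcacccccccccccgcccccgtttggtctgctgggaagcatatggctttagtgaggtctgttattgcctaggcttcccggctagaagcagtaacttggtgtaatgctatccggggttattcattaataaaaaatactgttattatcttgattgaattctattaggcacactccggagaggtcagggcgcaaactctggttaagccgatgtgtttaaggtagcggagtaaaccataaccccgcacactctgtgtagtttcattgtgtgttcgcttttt
Bdnf, neighbouring start, chr2:109692186-109692485, plus strand: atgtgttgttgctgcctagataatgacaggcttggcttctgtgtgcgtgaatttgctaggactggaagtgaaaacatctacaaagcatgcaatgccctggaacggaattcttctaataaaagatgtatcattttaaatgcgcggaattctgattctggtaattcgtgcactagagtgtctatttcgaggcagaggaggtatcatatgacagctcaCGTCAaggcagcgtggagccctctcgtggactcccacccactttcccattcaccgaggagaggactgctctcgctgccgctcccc

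The Gfra1 window held 1 CAGCTG and its GC content was 54.0%, against a median of 52.7% over all windows. The nearest deposited start of Gfra1, that of uc008iam.1 and uc008ian.1 at position 58455359, lies 39 bases downstream of the annotated one, and uc008ial.1, which held most of the reads, starts further downstream at 58454594. The Bdnf window labelled as the start in use held none of the 4 motifs, and the neighbouring one held 1 CGTCA.

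The co-receptor gene Gfra3 had the highest level of the 8 genes in every library. It stood at 327.9 scaled FPKM (317.2 to 338.6) in GIP-GFP, at 118.7 (114.7 to 122.7) in Ngn3-TOMATO and at 4.84 (3.94 to 5.74) in Ngn3-negative. The intervals of the 3 libraries did not overlap, and GIP-GFP was the highest. Gfra3 was above 98.7%, 94.8% and 58.5% of all genes in these libraries. The log2 ratio was 5.82 (5.59 to 6.04) for GIP-GFP against Ngn3-negative, a ratio of the values of 67.8. It was 4.36 (4.13 to 4.59) for Ngn3-TOMATO against Ngn3-negative and 1.46 (1.39 to 1.53) for GIP-GFP against Ngn3-TOMATO. All reads of the gene were assigned to its only deposited transcript, uc008ele.2 (1992 bases, chromosome 18, 34689903 to 34720387, minus strand), with a mean coverage of 90.6, 79.1 and 2.43 reads per base. Cells or RNA per cell cannot be separated in such bulk libraries: fewer expressing cells and less RNA in each give the same value.

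Gfra1, the co-receptor preferred by GDNF, followed the same order of libraries at a lower level. Its values were 29.1 scaled FPKM (26.8 to 31.3) in GIP-GFP, against 14.0 (11.1 to 16.9) in the Ngn3-TOMATO and 0.299 (0.128 to 0.470) in the Ngn3-negative library. The log2 ratios to Ngn3-negative were 4.53 (4.31 to 4.75) for GIP-GFP and 3.53 (3.20 to 3.87) for Ngn3-TOMATO. Between the reporter libraries GIP-GFP was higher by a log2 ratio of 1.00 (0.70 to 1.30), which lay just under the 2-fold line; without the added 1 the ratio of the values was 2.07. The gene lies on chromosome 19, 58236692 to 58455359, minus strand. Reads were assigned to 2 of its 4 deposited transcripts. Transcript uc008ial.1, with a length of 3337 bases, held the whole value in GIP-GFP and Ngn3-negative and 11.2 of the 14.0 in Ngn3-TOMATO, where uc008ian.1 held the other 2.87 (0.85 to 4.88). Transcript uc008iak.1 has the same ends as uc008ial.1 and 15 bases more, the length of the exon shown above. It had the status LOWDATA and was listed at 0, without an estimate, in all 3 libraries, so the 2 forms could not be compared. The number of transcripts with this status was 406 in each library, although the libraries differed in depth.

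Gfra2 and Gfra4, the co-receptors preferred by neurturin and persephin, were near or at 0 throughout. Gfra2 was listed at 0 in GIP-GFP and Ngn3-negative and stood at 0.359 (0.0461 to 0.672) in Ngn3-TOMATO, from 2 of its 4 transcripts. Gfra4 was listed at 0 in the same libraries and stood at 0.243 (0 to 0.907) in Ngn3-TOMATO, from 1 of its 7 transcripts. Neither gene reached the level at which genes were compared.

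Ret, the kinase shared by these co-receptors, was highest in Ngn3-TOMATO. It stood at 28.9 scaled FPKM (27.4 to 30.5) in GIP-GFP, against 56.7 (55.3 to 58.1) in the Ngn3-TOMATO and 1.35 (1.11 to 1.59) in the Ngn3-negative library. The intervals did not overlap, and the order of the reporter libraries was the opposite of that of Gfra1 and Gfra3. The log2 ratio was 4.62 (4.47 to 4.77) for Ngn3-TOMATO against Ngn3-negative, a ratio of the values of 42.0, and 3.67 (3.50 to 3.84) for GIP-GFP against Ngn3-negative, a ratio of 21.4. For GIP-GFP against Ngn3-TOMATO it was -0.95 (-1.03 to -0.87), just short of 2-fold lower. Ret ranked 141 of 13479 genes by the first of these differences and 461 of 13501 by the second.

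The Ret reads were assigned to 1 of its 2 deposited transcripts in every library. Both models span chromosome 6, 118151748 to 118197744, minus strand. Transcript uc009dln.1 (7341 bases) held the whole value, and uc009dlm.1 (6064 bases) was listed at 0. The files give no exons, but the lengths differ by 1277 bases, which is the length of the last intron of the annotated 1115-residue form (118154011 to 118155287), and that form with the deposited ends has 6064 bases. By length, the model that received the reads therefore keeps the intron that holds the stop codon of the 1073-residue form (118155256 to 118155258), shown above as the shorter of the Ret sequences. Coverage of the intron itself is not in the files, and reads elsewhere in the gene cannot tell the 2 models apart.

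**Figure D1:**
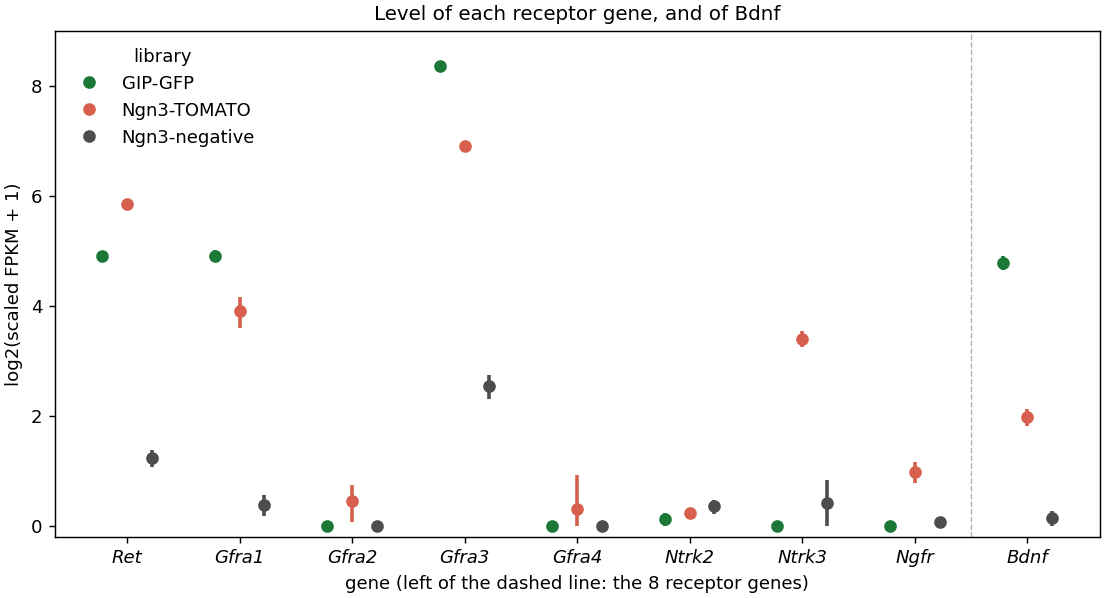
Level of the 8 receptor genes, and of the ligand gene Bdnf to the right of the dashed line, in the 3 libraries, as log2(scaled FPKM + 1); points are single libraries and bars are 95% counting intervals. Gfra3 is the highest of the 8 genes in each library, Ret is highest in Ngn3-TOMATO, and Ntrk3 is at 0 in GIP-GFP while Bdnf is highest there.

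The proportion of co-receptor to kinase RNA therefore differed between the sorts. Per length of transcript, the ratio of Gfra3 to Ret was 11.3 in GIP-GFP, against 2.09 in the Ngn3-TOMATO and 3.58 in the Ngn3-negative library. The ratio of Gfra1 to Ret was 1.00, 0.247 and 0.221. Gfra3 exceeded Gfra1 by 11.3, 8.46 and 16.2 times in these libraries, the last from a Gfra1 value with a wide interval.

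Among the Trk genes of the set, Ntrk3, whose product binds NT3, was seen above 1 scaled FPKM in a single library. It was listed at 0 in GIP-GFP and stood at 9.59 (8.55 to 10.6) in Ngn3-TOMATO and at 0.329 (0 to 0.780) in Ngn3-negative. For Ngn3-TOMATO against Ngn3-negative this gave a log2 ratio of 3.0 (2.49 to 3.50). Between GIP-GFP and Ngn3-TOMATO the gene counted as at least 2-fold lower. With a value of 0, the size of that log2 ratio depends on the added 1, so no size is given here. GIP-GFP was also the shallowest library, and the part of depth in that value of 0 was not tested. In Ngn3-TOMATO the value was shared by uc009hxh.2, with 5.17 (4.53 to 5.81), and uc009hxg.2, with 4.42 (3.60 to 5.25), out of 8 deposited transcripts. Both end at position 78300691 of chromosome 7, minus strand. The first matched the annotated form of 612 residues, which ends 1 base on, at 78300690, and lacks the kinase domain. The forms of 825 and 864 residues, which hold it, run on to positions 78175959 and 78192380, and the deposited transcript of that kind, uc009hxf.2, was listed at 0 in every library. A short transcript, uc029wmd.1, held 0.153 (0 to 0.576) in Ngn3-negative.

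Ntrk2, the receptor for BDNF and NT4, was low everywhere, at 0.0857 (0 to 0.180), 0.180 (0.101 to 0.259) and 0.275 (0.161 to 0.389). The intervals of neighbouring libraries overlapped, and those of GIP-GFP and Ngn3-negative also did. The log2 ratio of these last 2 libraries was nevertheless -0.23 (-0.41 to -0.05), an interval below 0. The gene did not reach the level at which genes were compared. All of its reads were assigned to uc007quk.1 (6850 bases, chromosome 13, 58808281 to 58937031, plus strand), which matched the truncated form of 476 residues. The 2 deposited transcripts that matched the form of 821 residues, with the kinase domain, were listed at 0 in the 3 libraries.

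Ngfr, the p75 receptor shared by the neurotrophins, was listed at 0 in GIP-GFP and stood at 0.979 (0.715 to 1.24) in Ngn3-TOMATO and at 0.0473 (0 to 0.113) in Ngn3-negative. It lay just under the 1 scaled FPKM needed for a comparison, and was the nearest of the 8 genes to that limit, which it passed under both scalings that lifted the Ngn3-TOMATO values. Its single transcript, uc007lam.2, spans chromosome 11, 95568821 to 95587698, minus strand.

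In sum over the 8 genes, 3 reached 10 scaled FPKM in GIP-GFP (Ret, Gfra1 and Gfra3), the same 3 did in Ngn3-TOMATO, and 0 of the 8 in Ngn3-negative. The share of all genes at that level was 38.8%, 38.5% and 35.9%. Listed at 0 were 4 of the 8 in GIP-GFP, against 0 in the Ngn3-TOMATO and 2 in the Ngn3-negative library. Of the 4 genes compared between Ngn3-TOMATO and Ngn3-negative, 4 were at least 2-fold higher, beside 19.3% of all genes compared, and 0 were lower, beside 9.96%. Between GIP-GFP and Ngn3-negative, 3 of 3 were higher, beside 21.1% of all genes, and 0 lower, beside 13.8%. Between GIP-GFP and Ngn3-TOMATO, Gfra3 was higher and Ntrk3 lower of 4 compared, beside 8.07% and 8.78% of all genes. The choice of the genes used these contrasts, and a gene that passed the lower limit through 1 library had to differ, so nothing is read from these shares. The comparisons share libraries and are not independent of each other.

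**Figure D2:**
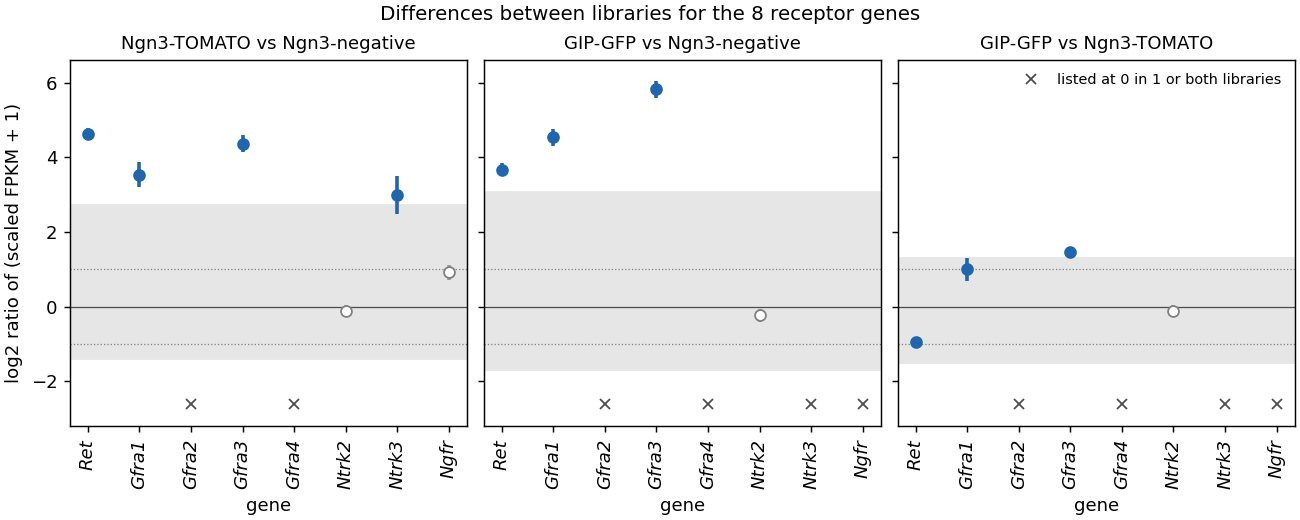
log2 ratio of (scaled FPKM + 1) for the 8 genes in the 3 comparisons; bars are 95% counting intervals, filled points are genes compared, open points are genes under 1 scaled FPKM in both libraries, crosses mark genes listed at 0 in 1 or both libraries (no ratio), dotted lines are 2-fold and the grey band runs from the percentile 5 to the percentile 95 of all genes compared. Ret, Gfra1 and Gfra3 lie above the band in both comparisons with Ngn3-negative, and Ret and Gfra3 lie on opposite sides of 0 between the reporter libraries.

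Cells of the bowel wall that are known for these receptors were looked for by their markers. Of 13 enteric neuron markers, Phox2a was listed at 0 in all libraries. Hand2 stood at 0, 0 and 0.0874. Other genes of this list were seen in the reporter libraries, such as Uchl1 (6.95, 10.8 and 0) and Tubb3 (5.04, 6.02 and 0.491). Relative to Ngn3-negative, 4 of 7 neuron markers compared rose past the 2-fold line in Ngn3-TOMATO. In GIP-GFP 4 of 5 did, and in both cases 0 fell past it. The part of neuronal RNA in the receptor values was not tested. The 13 genes summed to 98.9, 241.9 and 5.18, of which Snap25, a protein of vesicle release that endocrine cells also make, gave 84.5, 217.6 and 3.16. Of 10 enteric glia markers, Sox10 and Cdh19 were at 0 in all libraries, and the sums of 131, 117 and 135 were mostly Erbb3, which epithelium also makes, with 110, 110 and 132. The 10 fibroblast and muscle markers summed to 0.942, 2.79 and 2.97. The 6 endothelial markers summed to 1.97, 10.1 and 0.622, of which Pecam1, which blood cells also make, gave 1.97, 9.68 and 0.342. The defining markers Cdh5 and Kdr were at 0 in both reporter libraries. The 12 blood cell markers summed to 57.4, 26.6 and 26.8, of which the T cell gene Cd3e gave 11.8, 1.97 and 5.13, and the macrophage gene C1qa 0.171, 10.7 and 0.0834; their part in the receptor values was not tested. The 8 enterochromaffin markers, genes of the serotonin-making endocrine cells, summed to 759, 16555 and 251. Of the 759 in GIP-GFP, Adgrg4 gave 305 and Fev 255. There 3 of the 8 genes were at least 2-fold higher than in Ngn3-negative, beside 21.1% of all genes, and 0 were lower. The 7 tuft cell markers summed to 52.5, 364 and 183. Like Ret and Ntrk3, these lists and the goblet and Paneth cell lists were highest in Ngn3-TOMATO; their part in the values of Ret and Ntrk3 was not tested.

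**Figure D3:**
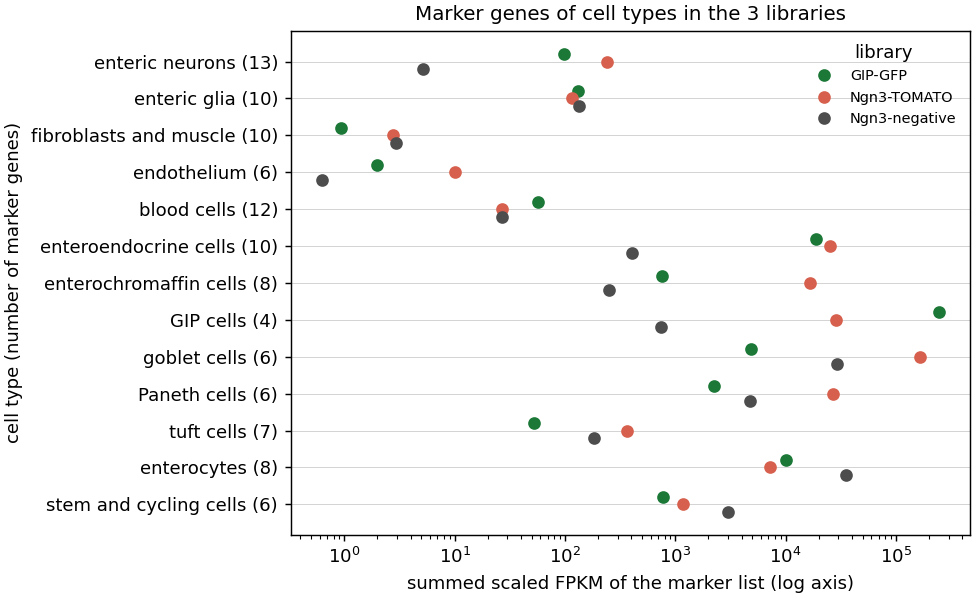
Summed scaled FPKM of marker genes of 13 cell types (log axis; number of genes in brackets) in the 3 libraries. The enteroendocrine and GIP cell lists lie to the right for both reporter libraries. The enterochromaffin, goblet and Paneth cell lists are highest in Ngn3-TOMATO, and the neuron list, mostly Snap25, runs from 5.18 to 241.9.

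The ligand genes were read next. Of the 5 ligand genes of the GDNF family and its relative Gdf15, Gdnf was listed at 0 in all libraries. Artn, the gene of artemin, was listed at 0 in GIP-GFP and Ngn3-negative and stood at 0.17 in Ngn3-TOMATO. Nrtn (neurturin) stood at 5.09 (2.60 to 7.58), 6.48 (4.86 to 8.09) and 6.92 (5.13 to 8.72), and these intervals overlapped. Pspn (persephin) was at 4.18 (1.08 to 7.27), 3.89 (2.04 to 5.75) and 2.66 (0.92 to 4.40), also overlapping. Gdf15, a stress hormone whose receptor Gfral signals through Ret, stood at 6.80 (4.41 to 9.20), 35.0 (31.7 to 38.3) and 5.42 (4.0 to 6.85), with a log2 ratio of 2.49 (2.14 to 2.83) for Ngn3-TOMATO against Ngn3-negative; Gfral itself was listed at 0 in all libraries. Apart from Gdf15, the ligand genes of this family seen in all 3 libraries were those of neurturin and persephin, whose preferred co-receptors Gfra2 and Gfra4 were near 0, while the genes of GDNF and artemin were at or near 0.

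Of the neurotrophin genes, Ntf3 stood at 0.12, 0.15 and 0, and Ntf5 (NT4) at 0.27, 0.07 and 0.05. Bdnf stood apart, with 26.5 (24.1 to 28.9) in GIP-GFP, against 2.94 (2.50 to 3.37) in the Ngn3-TOMATO and 0.0997 (0.0020 to 0.197) in the Ngn3-negative library. The intervals did not overlap. The log2 ratio was 4.64 (4.46 to 4.82) for GIP-GFP against Ngn3-negative and 2.81 (2.60 to 3.01) for GIP-GFP against Ngn3-TOMATO, where Bdnf ranked 99 of 13774 genes. Of its 11 deposited transcripts, which start at several positions, 2 were above 0. Transcript uc008lmj.1, from position 109693027, labelled above as the start in use, held 13.7, 0 and 0.0997. Transcript uc008lmk.1, from position 109693563, whose window is not shown, held 12.8, 2.94 and 0, which was the whole value in Ngn3-TOMATO. These values are assignments of reads to transcript models, and coverage of the first exons was not available. Transcript uc008lmi.1, from the neighbouring start shown above, was at 0 in the 3 libraries.

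Other receptors of these ligands were read beside them. Sorl1, a sorting receptor, stood at 24.1, 108.3 and 53.1, and Sort1, a p75 partner, at 82.8, 93.7 and 74.4. Sorcs2, which can also pair with p75, stood at 16.7, 25.4 and 5.77, and Nradd, a relative of Ngfr, at 12.1, 10.98 and 3.79. These were therefore seen in both reporter libraries, where Ngfr was under 1.

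Ret was set beside the other receptor tyrosine kinases, 58 genes in all. By level it ranked 11th in GIP-GFP, 4th in Ngn3-TOMATO and 27th in Ngn3-negative. By its difference between Ngn3-TOMATO and Ngn3-negative it ranked first of the 37 compared, followed by Ltk (21.2, 38.6 and 1.23) and Ntrk3. By the difference between GIP-GFP and Ngn3-negative it ranked second of 34, before Ltk. By that between GIP-GFP and Ngn3-TOMATO, Ret was 29th of 38. The choice of Ret and Ntrk3 used these contrasts, so nothing is read from their ranks. Both genes are also part of the family counts and medians that follow. Over the family, Ngn3-TOMATO exceeded Ngn3-negative at least 2-fold for 16 of 37, beside 19.3% of all genes, and was lower for 3, the median being 0.37, while the median over all genes was 0.03. In GIP-GFP against Ngn3-negative, 10 of 34 were higher, beside 21.1%, and 6 lower, the median being -0.09 beside 0.07 over all genes. Fgfr2, a receptor for fibroblast growth factors, stood at 8.64, 54.1 and 12.3, Insrr, a relative of the insulin receptor, at 1.98, 12.8 and 1.23, and Mertk, a receptor for the clearance of dying cells, at 68.0, 19.1 and 70.7. Ror2, a Wnt receptor, stood at 22.45, 11.5 and 4.30, and Ddr1, a collagen receptor and first by level in GIP-GFP, at 136.3, 98.6 and 49.2. Erbb3, a receptor for neuregulins whose values are given above, was first in the other libraries.

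**Figure D4:**
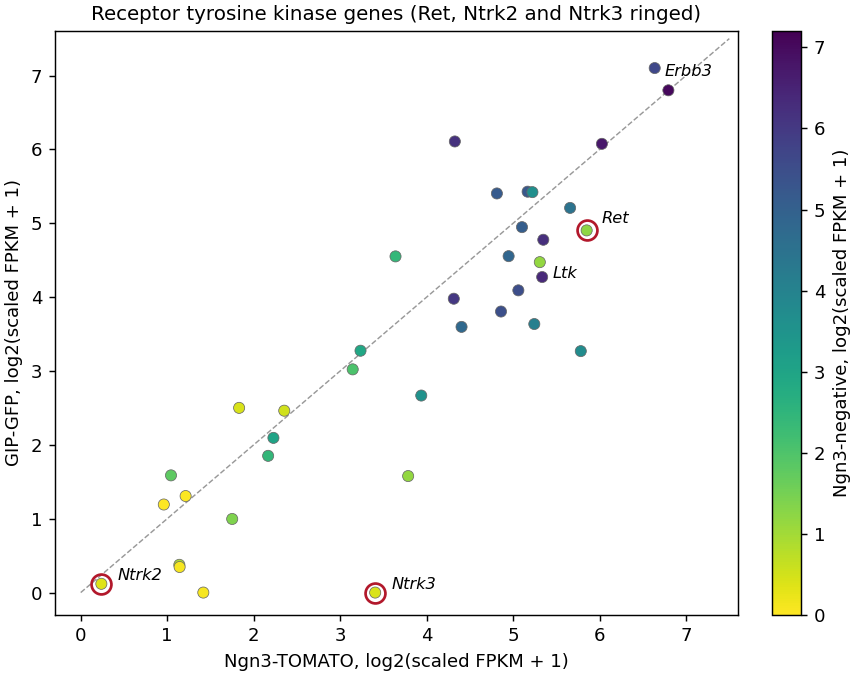
Receptor tyrosine kinase genes that reached 1 scaled FPKM in a library, and Ntrk2 (1 gene is not drawn), by level in Ngn3-TOMATO (x axis) and GIP-GFP (y axis), both as log2(scaled FPKM + 1); colour gives the level in Ngn3-negative and the dashed line is equality. Ret and Ltk are high in both reporter libraries and low in Ngn3-negative, and Ntrk3 lies on the x axis at 0 in GIP-GFP.

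Proteins that carry the signal onward were read from a list of 34 adaptors and effectors, of which 33 were matched. In Ngn3-TOMATO against Ngn3-negative, 8 of 27 compared were at least 2-fold higher, beside 19.3% of all genes, and 0 lower, the median being 0.20 beside 0.03. In GIP-GFP against Ngn3-negative, 6 of 27 were higher, a share near the 21.1% of all genes, and 0 were lower, the median being 0.47 beside 0.07. Bex3, a p75-associated protein and the list's most abundant gene in both reporter libraries, stood at 810.6, 347.5 and 32.3, and Maged1, which also binds p75, at 316.3, 194.1 and 21.2. In Ngn3-negative the most abundant was Arhgdia, with 257.8, 260.7 and 294. Shc2, an adaptor of Trk receptors, stood at 28.4, 22.8 and 0.592, and Frs3, a docking protein of Ret and Trk, at 21.5, 15.4 and 4.55. Rtn4r, the Nogo receptor, which can pair with p75, was highest in Ngn3-TOMATO, at 4.15, 14.9 and 2.92. The p75 partners Bex3 and Maged1 were thus abundant in GIP-GFP, where Ngfr was listed at 0.

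Feedback regulators and targets of Ras and MAP kinase signalling, which Ret and Trk share with many other receptors, were 15 listed genes with 14 matched. In Ngn3-TOMATO against Ngn3-negative, 9 of 13 compared were higher, beside 19.3% of all genes, and 0 lower, the median being 1.95 beside 0.03. In GIP-GFP against Ngn3-negative, 5 of 12 were higher, beside 21.1%, and 2 lower, the median being 0.66 beside 0.07. In GIP-GFP against Ngn3-TOMATO, 1 of 13 was higher and 5 were lower, with a median of -0.90 beside 0.08 over all genes. The ETS factors Etv1 (18.9, 20.4 and 0.282) and Etv5 (32.9, 9.95 and 0.938), targets of Ret in other tissues, and the phosphatases Dusp4 (27.0, 51.2 and 5.13) and Dusp5 (189, 205 and 30.3) were higher in both reporter libraries. The inhibitor Spry1 was lower in GIP-GFP than in either other library, at 3.36, 34.0 and 9.74. The immediate early genes Fos, the most abundant of the list (600, 2024 and 522), and Egr1 (581, 1210 and 153) were highest in Ngn3-TOMATO; they also respond to tissue dissociation, whose part in these values was not tested.

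A list of 17 transcription factors of neural or endocrine development, some of them known regulators of Ret or Trk genes, had 7 genes that could be compared. In Ngn3-TOMATO 6 of 7 were at least 2-fold higher than in Ngn3-negative, with a median of 5.13, and in GIP-GFP 5 of 7, with 1 lower and a median of 5.0, beside the shares and medians of all genes just given. Isl1 stood at 772, 147.6 and 3.24, Insm1 at 545, 242 and 6.82, Neurod1 at 392.5, 606 and 11.3 and Fev at 255, 170 and 2.55. Isl1, Insm1 and Fev thus had the order of libraries of Gfra1 and Gfra3, and Neurod1 that of Ret. Whether any of these factors acts on the receptor genes here was not tested. Lmx1a, a factor of enterochromaffin cells, stood at 2.63, 135.6 and 2.15, and was thus highest in Ngn3-TOMATO, as Ret and Ntrk3 were. Sox10, a regulator of Ret in enteric neuron progenitors, was at 0 in all libraries.

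The genes with the most similar pattern were found for Ret, Gfra1 and Gfra3, as the smallest Euclidean distance over the 3 libraries between log2(scaled FPKM + 1) values after each gene's mean was subtracted, among the 10478 genes that reached 10 scaled FPKM in any library. Nearest to Ret were Dnaja4 (distance 0.19), Syt7 (0.22), Rbm3os (0.22), B3gnt2 (0.29) and Neto1 (0.31). Rbm3os is an antisense gene, and the matching used no strand, so its value is uncertain. Nearest to Gfra1 were Tmem175 (0.041), Sv2c (0.049), Rab3b (0.067), Cxxc4 (0.088) and Zmym4 (0.11). Nearest to Gfra3 were Fam183b (0.069), Pex5l (0.092), Slc26a4 (0.12), 1110032F04Rik (0.16) and Cplx1 (0.17). Fam183b, for example, stood at 865, 311.5 and 15.2, and Sv2c at 37.9, 18.1 and 0.604. Each distance rests on 3 values per gene.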

How the data were processed

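Per the labels' protocols, the villous fraction was released with EDTA, dispersed with collagenase and sorted; pooled polyadenylated RNA was not amplified, TruSeq libraries were made and they were read on a Genome Analyzer II. Per the submitters' processing notes, FastQC, TopHat 1.5.0, Cufflinks and mm10 were used; the sources used here give no Cufflinks version. As the file headers show, the authors deposited FPKM with its limits and status for 59120 UCSC transcripts, and coverage, the mean read depth per base, which is the deposited signal used for depth. FPKM divided by coverage gave 1 number per library (29553, 12249 and 16284), so its library term is not the usual one.

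From these, transcripts of at least 200 bases were summed per symbol and divided by 8168. Symbols came from GENCODE M21, matched by position (at least 0.3 of the union) and length without use of strand; 52073 transcripts matched. Transcripts marked as having too many reads (0, 4 and 9) and mitochondrial ones were left out. File starts count from 0; 1-based positions are printed. The pseudocount and filter were 1 scaled FPKM, and the deposited limits were taken as 2 standard errors. Python 3.11.15, pandas 2.3.3, numpy 2.4.6 and matplotlib 3.10.9 were used. The calculation was tested on simulated data. There was no test between groups. The members and lists were chosen with earlier results of these data known. From each list, named genes reached 10 scaled FPKM and 2-fold, at most the 4 farthest from 0 per comparison, plus the most abundant. Ligands are named at any level, and Sort1, Erbb3 and Arhgdia were added after their values were seen. Gfral and Sox10, at 0 in all libraries, are also named outside this rule. Some genes of these lists are not reported here. Alternatives changed the pseudocount, filter, scaling, length minimum, transcript choice and matching.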

Additional observations from a re-analysis of the deposited data

How the results depend on the processing

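No difference of the compared receptor genes changed direction under the 10 alternatives, which were another pseudocount (0.1 or 5), filter, scaling, transcript choice, length minimum or matching rule. Ret stayed between 3.28 and 5.29 for Ngn3-TOMATO against Ngn3-negative, Gfra3 between 5.08 and 6.05 when GIP-GFP was compared with Ngn3-negative, and Gfra1 between 0.84 and 1.30 for GIP-GFP against Ngn3-TOMATO. The sizes of Gfra1 and Ntrk3 against Ngn3-negative, where both were under 1 scaled FPKM, depended on the pseudocount: with 5 and with 0.1, Gfra1 gave 1.84 and 5.15 in Ngn3-TOMATO and 2.68 and 6.19 in GIP-GFP, and Ntrk3 gave 1.45 and 4.50 in Ngn3-TOMATO. Between the reporter libraries the log2 value of Ntrk3, at 0 in GIP-GFP, ran from -6.60 to -1.55 and so has a direction but no size. Between them the number of receptor genes at least 2-fold higher went from 1 to 2 with a pseudocount of 0.1, with libraries scaled to equal totals, with equal totals without the 50 most abundant genes, and with the most abundant transcript only, each time through Gfra1. The number lower went from 1 to 2 with equal totals without those 50 genes, where Ngfr passed 1 scaled FPKM and stood at -1.01, and to 3 with a median ratio of 1 over genes, where Ngfr stood at -1.01 and Ret reached -1.0. The other 54 of 60 counts were within 1.5 times.

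Scaling to equal totals moved the median of all genes to -0.20 in Ngn3-TOMATO against Ngn3-negative and to -0.13 in GIP-GFP against it. The share of 2-fold differences that were higher went from 65.9% to 53.2% in the first and from 60.5% to 51.1% in the second. A pseudocount of 5 took the numbers of all genes past 2-fold, higher and lower, from 2599 and 1343 to 1502 and 907, from 2846 and 1860 to 1795 and 1288, and from 1111 and 1209 to 607 and 673, for Ngn3-TOMATO and then GIP-GFP against Ngn3-negative and for the 2 reporter libraries. Under 1 alternative each, values near 0 turned sign: the log2 ratio of Nrtn to 0.02 and the median of the adaptors to -0.03 (Ngn3-TOMATO against Ngn3-negative), and the median of the receptor kinases to 0.03 (GIP-GFP against Ngn3-negative). Without a filter on low values the median of the transcription factors fell to 0.27 in the first of these comparisons and 0.13 in the second, where genes near 0 enter the list. No paired analysis was possible because each group has 1 library. Depth limits what can be seen of genes near 0. GIP-GFP, where 4 of the 8 genes were listed at 0, had the fewest read bases, and the part of depth in these values was not tested.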
